A study of Rattus norvegicus with 24 samples.

Results

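The comparison described here asks what cigarette smoke added to the lung RNA of rats that had also inhaled crystalline silica. It sets 6 libraries of rats given silica and smoke, called the combined group, against 6 libraries of rats given silica alone, and so uses 12 of the 24 libraries of the study. All animals were male Fischer 344 rats bought at 3 months of age and kept in whole-body inhalation chambers over 29 weeks. Both groups inhaled Min-U-Sil 5, a fine crystalline silica dust, at 15 mg/m3 for 6 h per day on 5 days of week 3. The silica group breathed air at all other times. The combined group also received cigarette smoke for 3 h per day on Tuesdays and Fridays, at 45 mg/m3 in week 1 and at 80 mg/m3 in week 2 and again from week 4 on. The other libraries came from 6 rats that breathed air throughout and 6 that received smoke alone, at 40 mg/m3 in week 1 and at 80 mg/m3 later, with air in week 3. The labels describe separate animals, housed in pairs under a 12 h light cycle, and give no day or hour of tissue collection. A piece of whole lung was used, so a lower level can mean fewer cells of a type or less RNA per cell, and these cannot be told apart.

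Crystalline silica particles are taken up by alveolar macrophages and cannot be cleared well, and the injured cells keep up inflammation and scarring. Cigarette smoke brings oxidants and polycyclic hydrocarbons that induce detoxifying enzymes in the airways and disturbs daily rhythms of lung genes. The molecular clock is a loop in which BMAL1 (gene Arntl) pairs with CLOCK or NPAS2 and switches on Per and Cry genes, Nr1d1 and Nr1d2, Dbp and Tef. PER and CRY proteins then hold the pair back, and the nuclear receptors encoded by Nr1d1 and Nr1d2, also named REV-ERB alpha and beta, repress Arntl and Npas2.

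Total counts ran from 280484 to 3333334 in the silica libraries and from 1084815 to 2734877 in the combined libraries. The shallowest was silica 4, where 3 reads of a gene correspond to 10.7 CPM, that is, counts scaled to a library total of 1000000. The library labelled silica 1 stood apart from the other 5 of its group. Spp1, a matrix protein of activated macrophages, lay at 1.83 CPM there and at 51.0 CPM or more in silica 2 to 6, against at most 6.73 CPM in air. Mmp12, a macrophage elastase, lay at 3.20 CPM there and at 57.4 CPM or more in silica 2 to 6, against at most 17.9 CPM in air. The main counts and the changes between silica and combined lungs of the genes described singly are therefore given with and without silica 1. For Bpifb1, Lpo and Retnla the change is given without silica 1 only.

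Other libraries also stood apart from the groups their labels give. The library labelled smoke 1 held Mmp12 at 57.2 CPM, Spp1 at 33.1 CPM and C3 at 1777 CPM, where smoke 3 to 6 held at most 11.8, 6.64 and 820 CPM. Its Nr1d1 lay at 23.5 CPM, below smoke 3 to 6, which held at least 52.1 CPM. The library labelled air 6 held 140 reads of the smoke-inducible gene Cyp1a1, where the other 5 air libraries held 0 or 1. Silica 1 thus lay at air levels of Spp1 and Mmp12, and smoke 1 near or at the levels of silica 2 to 6 for Mmp12 and C3. Whether labels were exchanged was not tested, the labels were kept as given, and the meaning of the silica group and of smoke without silica depends on them. Smoke 2 held 21629 counts in all.

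With smoke added, 33 of 13322 tested genes differed between the groups (0.248%), 16 higher (0.120%) and 17 lower (0.128%) in the combined group. A gene was called when its edgeR quasi-likelihood test, fitted on all 24 libraries, gave an adjusted p under 0.05. Without silica 1, 16 of 13539 tested genes were called (0.118%), 9 higher (0.0665%) and 7 lower (0.0517%). All 16 were among the 33 and kept their direction. These 16 were also called whichever of the 24 libraries was left out. DESeq2 called 24 genes (0.180%), 11 higher (0.0826%) and 13 lower (0.0976%), and limma voom with quality weights 116 (0.871%), 57 higher (0.428%) and 59 lower (0.443%). Of the 33 genes, DESeq2 called 22 and limma voom all 33, and both called the 16. In 25 of the 33 the 6 combined libraries lay all above or all below the 6 silica libraries, which 1.31% of all tested genes did. Against silica 2 to 6 alone the number was again 25, with 1.51% of all tested genes. The 16 comprise 7 clock genes, the transcription factor Zbtb16 and 8 genes of other functions.

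The number of calls depended on single libraries. Without air 6 there were 56 higher and 57 lower. The 16 higher calls became 31 without silica 3, 26 without smoke 1, 26 without combined 4, 9 without combined 3 and 9 without combined 6. The 17 lower calls became 30 without smoke 2, 26 without silica 4, 11 without silica 5, 11 without combined 2, 11 without combined 3, 11 without combined 5 and 10 without combined 6. Leaving out air 6, smoke 1 and smoke 2 together with silica 1 gave 111 calls of 13518 tested (0.821%), 61 higher (0.451%) and 50 lower (0.370%), and all 33 genes were called there.

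Of 20 tested genes on a list of circadian clock and clock output genes, 5 were higher and 2 were lower in the combined lungs, with and without silica 1. Over all tested genes the shares were 0.120% higher and 0.128% lower, or 0.0665% and 0.0517% without silica 1. The genes that rose were the output genes Dbp and Tef, both REV-ERB genes and the period gene Per3. Those that fell were the partners in the activating arm, Arntl and Npas2. As the labels give no day or hour of tissue collection, smoke and a differing hour cannot be told apart for these genes. The same limit holds for every other gene in the comparison. The list's median log2 change was -0.02, against -0.002 over all tested genes, since its members moved in both directions. Promoters of 3 of these 7 genes carry, within 250 bases before the start site, a motif that clock proteins are known to bind. They are shown because clock proteins are known to bind such motifs, and binding to these promoters was not tested. Among 33469 RefSeq promoter windows of assembly GRCr8, 5.59% held the E-box CACGTG bound by BMAL1 with CLOCK, 2.26% held the ROR element TAGGTCA bound by REV-ERB and ROR receptors, and 2.04% held the D-box TTANGTAA bound by DBP and TEF, on either strand. Of the 33 called genes 25 matched a window, with 27 windows in all. The E-box stood in 2 of the 27, in windows of Nr1d1 and Tef. The ROR element stood in 2, those of Arntl (RefSeq symbol Bmal1) and Ago4, and the D-box in none. The windows below are written 5′ to 3′ along the gene's strand, with the motif in capitals, and a match is a description of the letters only. Nr1d1 is on the minus strand at chr10:84229455-84229704, with the E-box at -191 to -186, and is 1 of 2 windows listed for the gene. Tef is on the plus strand at chr7:115206577-115206826, with the E-box at -198 to -193. Arntl is on the plus strand at chr1:176766078-176766327, with the ROR element at -16 to -10.
Nr1d1: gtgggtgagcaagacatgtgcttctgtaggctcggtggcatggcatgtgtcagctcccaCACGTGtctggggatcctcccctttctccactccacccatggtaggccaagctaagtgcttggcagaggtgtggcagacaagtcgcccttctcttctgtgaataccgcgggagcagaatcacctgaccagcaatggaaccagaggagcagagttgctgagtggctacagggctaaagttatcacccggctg
Tef: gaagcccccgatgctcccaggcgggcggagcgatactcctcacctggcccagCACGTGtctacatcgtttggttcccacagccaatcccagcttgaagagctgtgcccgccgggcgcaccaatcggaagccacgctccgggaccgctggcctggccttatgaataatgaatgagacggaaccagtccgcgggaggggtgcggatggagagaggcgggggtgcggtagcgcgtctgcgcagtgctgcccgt
Arntl: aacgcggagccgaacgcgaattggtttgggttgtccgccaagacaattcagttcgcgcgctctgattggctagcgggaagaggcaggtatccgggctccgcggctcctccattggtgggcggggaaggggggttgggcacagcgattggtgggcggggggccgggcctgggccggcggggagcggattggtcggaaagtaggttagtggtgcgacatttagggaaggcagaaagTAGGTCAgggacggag

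Dbp, a transcription factor that carries the clock's rhythm to output genes, showed the largest rise among the 33 called genes. It lay between 2.46 and 9.14 CPM in silica lungs (median 5.48) and between 19.4 and 30.5 CPM in combined lungs (median 25.1). No library of one group reached the other, and the rise was 4.09-fold (log2 2.03 ± 0.24 SE, n = 6 and 6, edgeR adjusted p 2.65e-05). Silica 1 held the highest level of its group, and without it the log2 change was 2.22 ± 0.25. Silica 4 held a single read of Dbp, so its level there has a wide counting error.

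Nr1d1 rose with it. Its levels were 10.5 to 22.4 CPM in silica lungs (median 12.3) and 35.5 to 59.4 CPM in combined lungs (median 46.0), a 2.91-fold rise (log2 1.54 ± 0.26, edgeR adjusted p 0.00272). Nr1d2, the second REV-ERB gene, ran from 52.3 to 74.4 CPM (median 61.3) and from 105 to 132 CPM (median 122), a 1.93-fold rise (log2 0.95 ± 0.14, adjusted p 0.00113 by edgeR). Both genes had groups that did not overlap, and without silica 1 their log2 changes were 1.43 ± 0.27 and 0.95 ± 0.15.

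Per3, a member of the period family that inhibits the activating pair, ran from 24.6 to 31.5 CPM in silica lungs (median 27.3) and from 55.9 to 81.0 CPM in combined lungs (median 60.4). Its rise of 2.24-fold (log2 1.16 ± 0.18, edgeR adjusted p 0.00119) again left no overlap, and without silica 1 the rise was 2.30-fold. Tef, a relative of Dbp, rose 1.53-fold from a median of 76.6 CPM (69.3 to 82.5) to a median of 113 CPM (101 to 134), with an edgeR adjusted p of 0.00431. Even the lowest combined library of Tef lay above the highest silica library, and its log2 change was 0.64 ± 0.12 without silica 1.

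The activating arm moved the other way. Arntl lay at 59.1 to 76.3 CPM in silica lungs (median 61.9) and at 28.9 to 47.0 CPM in combined lungs (median 34.5), a 1.82-fold fall (log2 -0.86 ± 0.13, edgeR adjusted p 0.00119). Npas2, which can take the place of CLOCK, lay at 40.6 to 100 CPM (median 53.9) and at 28.1 to 39.4 CPM (median 30.4), a 1.73-fold fall (log2 -0.79 ± 0.15, adjusted p 0.0109 by edgeR). The highest Npas2 value of the silica group came from the shallow library silica 4, and the groups of both genes did not overlap. Without silica 1 the log2 changes were -0.88 ± 0.14 and -0.78 ± 0.16.

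The other 13 tested clock genes did not pass the test, with log2 changes between -0.69 for Cry1 and 0.81 for Per2. Per2, another period gene, lay at 15.3 to 46.6 CPM in silica lungs (median 28.0) and at 32.9 to 57.4 CPM in combined lungs (median 49.1), with an edgeR adjusted p of 0.0556. It passed without any 1 of air 1, air 6, silica 3, silica 4, smoke 1, smoke 4 or combined 1 (adjusted p 0.0230 to 0.0492). Cry1, a repressor of the loop, had medians of 16.9 and 10.7 CPM (edgeR adjusted p 0.114), and Clock itself had a log2 change of -0.25 ± 0.09 (edgeR adjusted p 0.225). Without silica 1 the log2 changes were 0.79 ± 0.20 for Per2, -0.75 ± 0.20 for Cry1 and -0.20 ± 0.09 for Clock, none of which passed. In edgeR fits of the silica and combined libraries alone, Per2 passed with silica 1 (adjusted p 0.0245) and without it (0.0208). Cry1 passed only without it (0.0448). Those fits called 6 of 20 clock genes higher and 2 lower, or 6 and 3 without silica 1. Shares of all genes were 0.373% higher and 0.421% lower, or 0.488% and 0.355% without silica 1. Per2 and Cry1 were singled out after their values were seen.

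**Figure D1:**
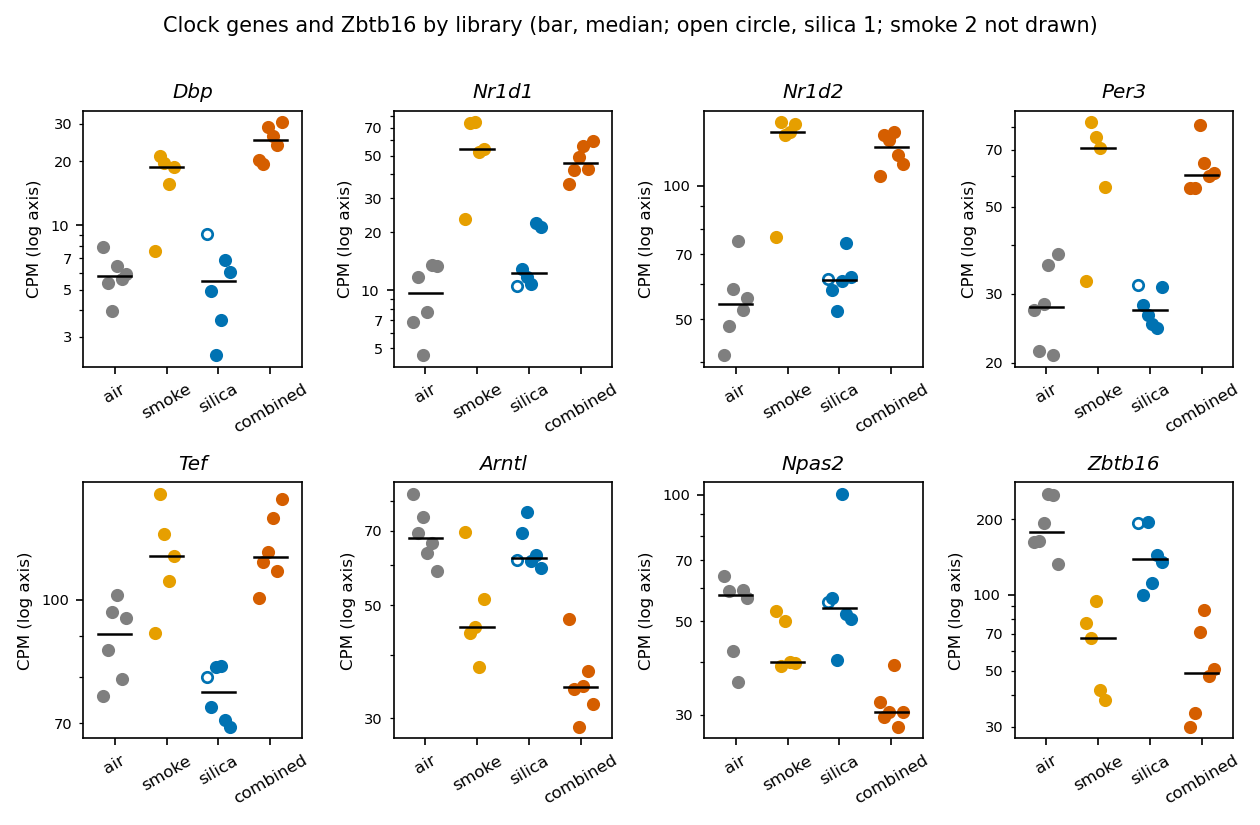
Levels of 7 clock genes and Zbtb16 in CPM on log axes, with 1 point per library, a bar at each group's median and silica 1 as an open circle. Smoke 2 is not drawn, as it held 21629 counts and at most 1 read of any of these genes. The combined points of Dbp lie between 19.4 and 30.5 CPM, above all silica points, and those of Arntl lie at 28.9 to 47.0 CPM, below all silica points.

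Zbtb16, a zinc finger transcription factor that glucocorticoids induce, fell more than any other called gene. It lay at 99.8 to 194 CPM in silica lungs (median 139) and at 30.0 to 87.3 CPM in combined lungs (median 49.1). The groups did not overlap, and the fall was 2.91-fold (log2 -1.54 ± 0.24, edgeR adjusted p 0.00119), or -1.44 ± 0.24 on the log2 scale without silica 1. It was the 1 called gene of 14 tested on a list of glucocorticoid-induced genes, with and without silica 1. Of all tested genes 0.128% were lower, or 0.0517% without silica 1. The list's median log2 change was -0.30 with silica 1 and -0.08 without it. Tsc22d3, the glucocorticoid-induced leucine zipper gene of that list, had medians of 213 CPM in silica and 163 CPM in combined lungs, with overlapping groups (log2 -0.32 ± 0.13, edgeR adjusted p 0.307, and -0.20 ± 0.13 without silica 1). For Zbtb16 and this list too, smoke and a differing hour of collection cannot be told apart.

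Among the 8 remaining genes called with and without silica 1, 4 rose and 4 fell, and 7 of them are described here. Duox1, an oxidase of airway epithelium that makes hydrogen peroxide for host defence, lay at 9.59 to 23.4 CPM in silica lungs (median 20.5) and at 34.0 to 63.0 CPM in combined lungs (median 38.9). The rise was 2.22-fold (log2 1.15 ± 0.19, edgeR adjusted p 0.00250), and 0.99 ± 0.18 on the log2 scale without silica 1, which held the lowest value. In air, Duox1 had a median of 9.73 CPM. Col16a1, a collagen that associates with fibrils, had a median of 172 CPM in silica lungs (90.0 to 178) and 272 CPM in combined lungs (247 to 418), a 1.93-fold rise (log2 0.94 ± 0.16, adjusted p 0.00431 by edgeR). Daam2, a formin of the Wnt pathway, had medians of 46.1 CPM (29.7 to 61.0) and 72.2 CPM (69.7 to 91.6), with a log2 change of 0.87 ± 0.16 (edgeR adjusted p 0.00821). In all 3 genes silica 1 was the lowest of its group and the groups did not overlap. Without it the log2 changes were 0.82 ± 0.15 for Col16a1 and 0.77 ± 0.16 for Daam2.

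Npr3 led the 4 that fell. It encodes the clearance receptor for natriuretic peptides and lay at 114 to 382 CPM in silica lungs (median 141) and at 49.6 to 89.2 CPM in combined lungs (median 67.8). Its highest silica value was that of silica 1, and the fall of log2 -1.50 ± 0.25 (edgeR adjusted p 0.00272) was -1.16 ± 0.21 without that library. Fibin, which encodes a secreted protein, had medians of 41.4 CPM (17.9 to 48.9) and 22.2 CPM (17.3 to 27.2), a 1.87-fold fall in which the shallow library silica 4, with 5 reads, overlapped the combined group. Silica 1 held the highest silica level of Fibin, and without it the log2 change was -0.84 ± 0.17. Apol11a, a gene of the apolipoprotein L family, lay at 71.3 to 82.5 CPM in silica lungs and at 31.0 to 55.5 CPM in combined lungs, a fall of log2 -0.74 ± 0.13 (adjusted p 0.00613 by edgeR) that was -0.76 ± 0.14 without silica 1. Pde3a, a phosphodiesterase of vascular and airway smooth muscle, had medians of 120 CPM (101 to 191) and 80.0 CPM (63.5 to 96.3), with log2 changes of -0.72 ± 0.14 and, without silica 1, -0.57 ± 0.12.

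**Figure D2:**
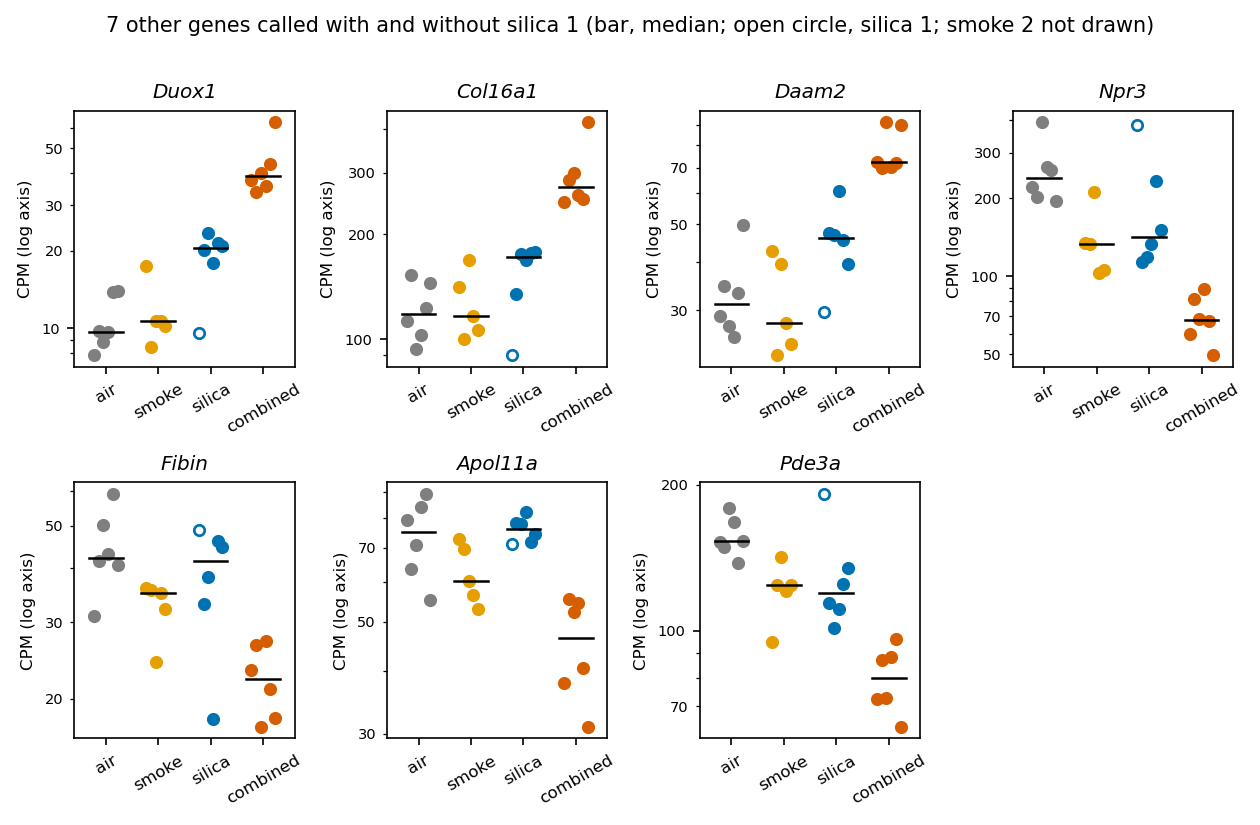
Levels in CPM on log axes of 7 of the 8 other genes called with and without silica 1, with 1 point per library, a bar at each group's median, silica 1 as an open circle and smoke 2 not drawn. Silica 1 is the lowest silica point for Duox1, Col16a1, Daam2 and, narrowly, Apol11a. It is the highest for Npr3, Pde3a and Fibin, and the combined points of Duox1 start at 34.0 CPM.

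The other 17 of the 33 calls were lost without silica 1, with edgeR adjusted p-values of 0.0556 to 0.221 and the same direction. Higher in the combined lungs with all libraries were Ncf1, a subunit of the phagocyte NADPH oxidase, Naglu, a lysosomal enzyme, Lgals1, a galectin, Evpl, Fam20c, Mylk2 and Ppil1. The largest of these rises was that of Mylk2, a myosin light chain kinase, with medians of 8.19 and 17.7 CPM and log2 changes of 1.18 ± 0.24 and, without silica 1, 1.03 ± 0.24. Ncf1 lay at 34.3 to 90.6 CPM in silica and at 93.9 to 166 CPM in combined lungs, and its log2 change of 0.86 ± 0.18 was 0.70 ± 0.16 without silica 1 (adjusted p 0.0985 by edgeR). Lower with all libraries were Sox17, a transcription factor of endothelium, Acer2, a ceramidase, Anxa3, an annexin, Ldb2, Hecw2, Rapgef5, Ccdc102a, Fam117b, Ago4 and Ahsa2. Sox17 had medians of 54.9 and 37.7 CPM, with log2 changes of -0.65 ± 0.12 and, without silica 1, -0.54 ± 0.12. Silica 1 held the highest silica level of Sox17, Acer2, Anxa3, Ldb2, Hecw2, Rapgef5, Ccdc102a, Ago4 and Ahsa2.

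Sox17, Hecw2 and Ccdc102a lost their calls only without silica 1, and the other 14 without any 1 of 4 to 14 libraries each, silica 1 among them. Combined 6 ended 14 of the calls when left out (adjusted p 0.0902 to 0.163), combined 3 ended 13 and combined 2 ended 11 (0.0504 to 0.120), and combined 5, silica 5 and silica 6 ended 9 each (0.0577 to 0.0988). Combined 1 ended 8 (0.0508 to 0.101), air 4 and silica 2 ended 4 each, air 2 and smoke 3 ended 3 each, air 3 and silica 3 ended 2 each, and air 1, silica 4, smoke 4, smoke 5 and smoke 6 ended 1 each (0.0502 to 0.0623 over these 11).

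The 6 smoke and 6 air libraries lie outside the silica and combined groups, and by label set smoke against air without silica. The fit that called the 33 genes also used them for its spread, so the comparisons are not fully independent. The doubts given above about smoke 1, smoke 2 and air 6 apply here. In the smoke and air libraries 31 of the 33 genes changed in the same direction as in silica-exposed rats (93.9%), against 55.4% of all tested genes. The change in that direction had an unadjusted p under 0.05 in 15 of the 33, against 8.29% of all tested genes in either direction. Of the 20 genes called there (0.150%), 5 were among the 33, namely Dbp, Nr1d1, Nr1d2, Per3 and Zbtb16. Without silica 1, smoke 1, smoke 2 and air 6, 26 of 33 kept the direction (78.8%, against 49.0% of all genes), and 11 of the 33 were called among 98 of 13518 (0.725%). These were the same 5 and Tef, Arntl, Npr3, Acer2, Ccdc102a and Rapgef5.

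Of the 7 called clock genes, 4 also passed the test with smoke alone, where the hour of collection is likewise not given. The other 3 did not, with log2 changes of 0.33 ± 0.11 for Tef, -0.45 ± 0.13 for Arntl and -0.24 ± 0.15 for Npas2 (edgeR adjusted p 0.230 to 0.732). Nr1d1 had a median of 9.73 CPM in air and 53.0 CPM in smoke lungs, with a log2 change of 2.49 ± 0.26 (edgeR adjusted p 1.85e-06), and Dbp changed by 1.49 ± 0.24 (edgeR adjusted p 0.00163). Zbtb16 changed by -1.56 ± 0.23 with smoke alone, next to -1.54 ± 0.24 with smoke added to silica. By contrast, log2 changes with smoke alone were 0.10 ± 0.23 for Duox1, 0.05 ± 0.17 for Col16a1 and -0.08 ± 0.18 for Daam2, none of which passed the test, and Daam2 and Ppil1 were the 2 genes of the 33 with the opposite sign.

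Whether the smoke effect itself differed between silica-exposed and air-breathing rats was tested as a difference of the log2 changes. By edgeR no gene of 13322 passed (0%), and 977 had an unadjusted p under 0.05 (7.33%). The differences were 1.05 for Duox1 (edgeR adjusted p 0.346), 0.89 for Col16a1 (0.339) and 0.95 for Daam2 (0.334). The adjusted p of Dbp was 0.765 and that of Zbtb16 was 1. DESeq2 called 1 gene (2.53% with an unadjusted p under 0.05) and limma voom 9 (11.6%), of which Ppil1 belongs to the 33. Without silica 1, smoke 1, smoke 2 and air 6, edgeR called 19 (0.141%), among them Nr1d1 and Tsc22d3. There Nr1d1 rose by log2 2.88 ± 0.21 with smoke alone and by 1.41 ± 0.19 with smoke added to silica, a difference of -1.48 ± 0.30 (edgeR adjusted p 0.0339). Tsc22d3 fell by 1.05 on the log2 scale with smoke alone (± 0.12) and had -0.20 ± 0.12 with smoke added to silica, a difference of 0.85 ± 0.17 (edgeR adjusted p 0.0286).

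**Figure D3:**
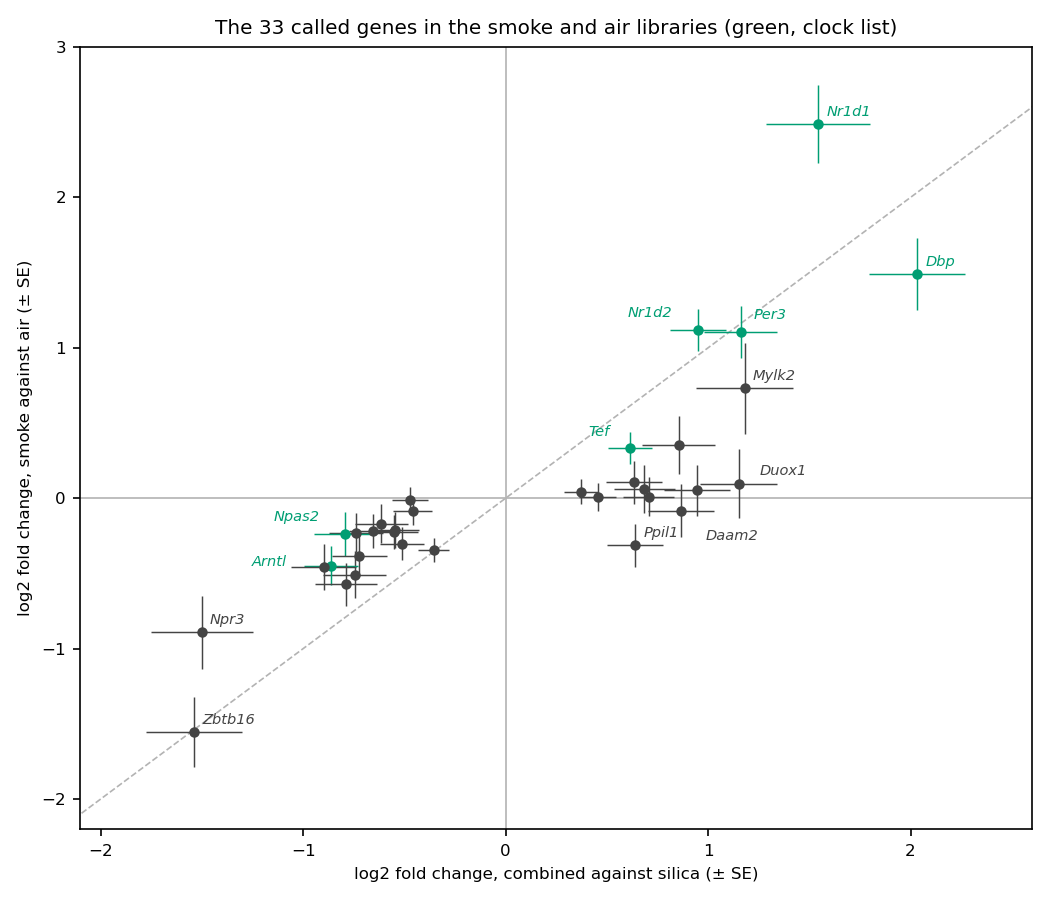
Log2 fold changes of the 33 called genes for smoke added to silica (horizontal) and for smoke alone against air (vertical), all libraries, with bars for ± SE, clock genes in green and the dashed line at equal change. Nr1d1 lies above the line at 1.54 and 2.49, Zbtb16 on it at -1.54 and -1.56, and Duox1 near the horizontal axis at 1.15 and 0.10.

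Genes known for their response to silica lay lowest in silica 1, and none of the 6 described next passed the test with all libraries or without silica 1. Spp1 lay at 114 to 272 CPM in combined lungs (median 167) and at 1.83 to 109 CPM in silica lungs (median 96.2). The combined libraries were all above the silica ones, also above silica 2 to 6, yet the log2 change of 1.25 ± 0.39 had an edgeR adjusted p of 0.166, and 0.96 ± 0.30 without silica 1 had 0.323. Of all tested genes, 1.31% lay all above or all below the silica libraries, and 1.51% silica 2 to 6. Chia, an acidic chitinase of lung epithelium and macrophages, lay at 1341 to 2127 CPM in combined lungs (median 1586), at 637 to 1004 CPM in silica 2 to 6 and at 79.5 CPM in silica 1. Its log2 change was 1.21 ± 0.34 (edgeR adjusted p 0.123), and 0.97 ± 0.25 without silica 1 (0.170). Chi3l1, a chitinase-like protein of activated macrophages, ran from 572 to 711 CPM in combined lungs and from 373 to 492 CPM in silica 2 to 6, with log2 changes of 0.67 ± 0.24 and, without silica 1, 0.47 ± 0.19.

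Complement C3 likewise had combined libraries all above the silica ones, at 2097 to 2554 CPM against 458 to 2031 CPM, with a log2 change of 0.53 ± 0.27 (edgeR adjusted p 0.412). Ccl2, the chemokine that draws monocytes, and Mmp12 overlapped between the groups. Their medians in silica and combined lungs were 38.0 and 63.5 CPM for Ccl2, and 64.2 and 95.5 CPM for Mmp12, with edgeR adjusted p-values of 0.321 and 0.469. With all libraries the log2 changes were 0.84 for Ccl2 and 0.74 for Mmp12. Without silica 1 the log2 changes were 0.34 ± 0.23 for C3, 0.56 ± 0.31 for Ccl2 and 0.46 ± 0.36 for Mmp12. Lcn2, a siderophore-binding protein of neutrophils and airway cells, had a log2 change of -0.01 ± 0.41, Sftpc, a surfactant protein gene, 0.01 ± 0.28, and Col1a1, the main fibrillar collagen gene, -0.09 ± 0.38, none passing the test by edgeR (adjusted p 0.967 to 1). Without silica 1 the 3 values were -0.23 ± 0.39, -0.095 ± 0.28 and -0.13 ± 0.40.

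**Figure D4:**
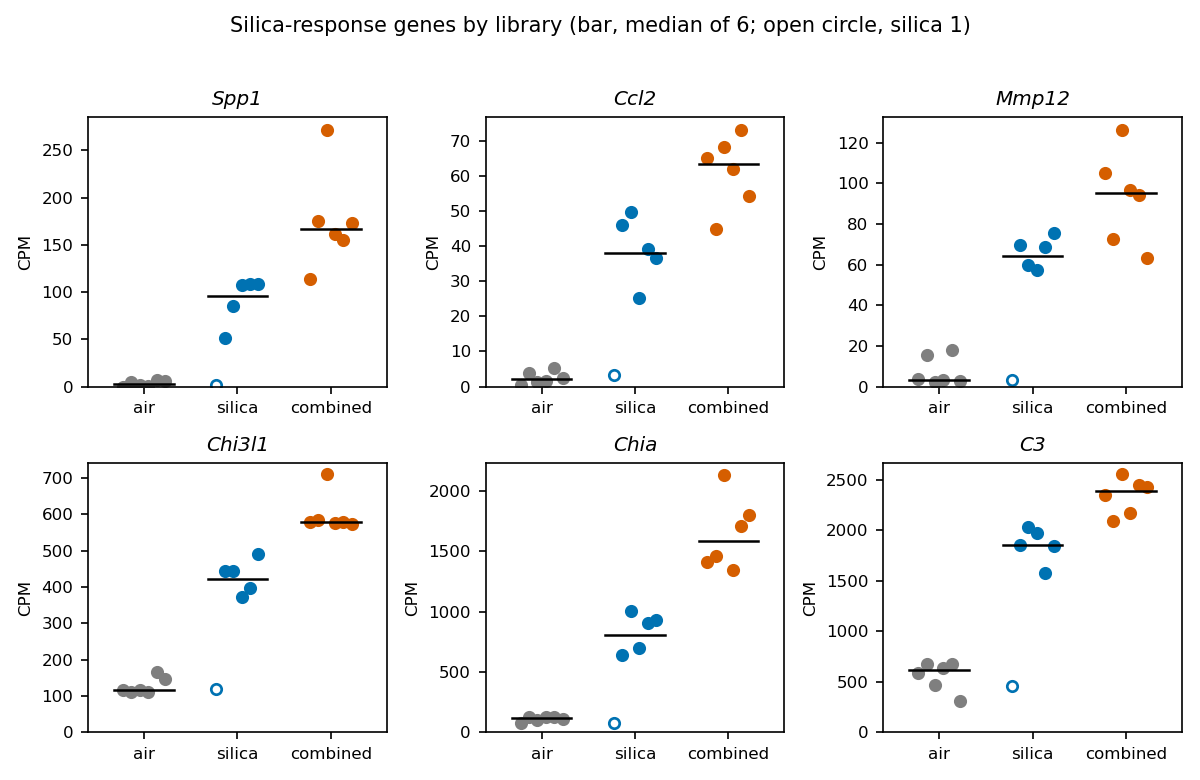
Levels of 6 genes in CPM on linear axes from 0, in air, silica and combined lungs, with 1 point per library, a bar at the median of 6 and silica 1 as an open circle. Silica 1 lies among or near the air points in all 6 panels, at 1.83 CPM for Spp1. The combined points of Spp1, Chi3l1, Chia and C3 lie above every silica point, and 1.31% of all tested genes were so separated in either direction.

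A fit of the 12 silica and combined libraries alone called 100 of 12594 genes (0.794%), 47 higher (0.373%) and 53 lower (0.421%), and with silica 1 left out as well 107 of 12693 (0.843%), 62 higher (0.488%) and 45 lower (0.355%). Of the 33 genes, all were called in the first and 30 in the second, and 45 further genes were called in both. The genes named in this and the next paragraph were picked after these values were seen, with log2 changes from the fit of 11 libraries. Higher in the combined lungs were genes of airway defence and secretion, 4 of the 11 tested on the airway oxidative defence list with none lower, and 2 of 10 with silica 1 kept. They were Duox1, Muc5b, a gel-forming mucin (2.16 ± 0.47), Bpifb1, a bactericidal-fold secreted protein (0.77 ± 0.13), and Lpo, the lactoperoxidase of airway fluid (0.70 ± 0.14). Muc5b lay at 2.49 to 11.2 CPM in silica lungs and at 9.30 to 64.7 CPM in combined lungs, so it rests partly on 1 high library. Lpo lay at 62.2 to 93.0 CPM in combined lungs and at up to 60.3 CPM in silica lungs, with no read in silica 1. Of the inflammation genes above, Chia (adjusted p 2.91e-05), Chi3l1 (0.00146), Spp1 (0.00509), Ccl2 (0.0387) and C3 (0.0407) passed in this edgeR fit, and Mmp12 did not (0.117). With silica 1 kept in the fit of 12 libraries, none of these 5 passed (edgeR adjusted p 0.0638 to 0.227), nor did Bpifb1 (0.0827) and Lpo (0.124), while Muc5b passed (0.0289). The log2 change of Muc5b was 2.12 there.

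Retnla, a gene used as a marker of alternatively activated macrophages, lay at 238 to 385 CPM in combined lungs and at 119 to 219 CPM in silica 2 to 6, a log2 change of 0.95 ± 0.12 (edgeR adjusted p 3.93e-05). Which cells held its RNA was not tested. The macrophage marker list had 1 of 17 tested genes higher, C1qc, and 1 lower, Cd163, in both fits. Lipid-handling macrophage genes had 5 of 19 higher, but 1 of 19 with silica 1 kept and none in the fit on all 24 libraries, beside 0.488% and 0.373% of all genes higher in the fits of 11 and 12 libraries. Among the 5 were Gpnmb (0.38 ± 0.08) and the fatty acid binding protein gene Fabp4 (0.70 ± 0.14), the latter being the 1 that passed with silica 1 kept. Cathepsin and lysosome genes had 6 of 22 higher, and 5 with silica 1 kept, with the enzymes Ctsz (0.55 ± 0.11), Ctsd (0.42 ± 0.09) and Ctsa (0.33 ± 0.07) among them. Complement factor I gene Cfi (0.77 ± 0.13) and C1qc (0.56 ± 0.13) were higher too, of 4 higher among 23 complement genes, or 1 with silica 1 kept. Lower were the neutrophil-attracting chemokine genes Cxcl1 (-1.02 ± 0.13) and Cxcl6 (-0.86 ± 0.14), the haemoglobin scavenger receptor Cd163 (-0.98 ± 0.22), the matrix protease Adamts9 (-0.63 ± 0.10), the chaperone Hsph1 (-0.46 ± 0.09) and the lung monooxygenases Fmo2 (-0.72 ± 0.09) and Cyp4b1 (-0.44 ± 0.07). The neutrophil list had 2 of 13 tested genes lower, and 0 with silica 1 kept. Lung cytochrome P450 and flavin monooxygenase enzymes had 2 of 13 lower, or 3 with silica 1 kept, and heat shock chaperones 1 of 18 in both fits. Of all genes, 0.355% and 0.421% were lower in the fits of 11 and 12 libraries. Also higher were Hmgcs1, an enzyme of cholesterol synthesis (0.51 ± 0.10), Kng1, the kininogen gene (1.19 ± 0.17), and Emp1, an epithelial membrane protein gene (0.46 ± 0.07). Cxcl1 lay at 24.8 to 45.1 CPM in combined lungs, below silica 2 to 6, while silica 1 lay at 23.3 CPM. Fmo2, one of the most abundant, fell from 671 to 1220 CPM in silica lungs to 374 to 543 CPM in combined lungs, with no overlap. With silica 1 kept in the fit of 12 libraries, Retnla, Gpnmb, Ctsd, Cfi, Cxcl1 and Cxcl6 did not pass (edgeR adjusted p 0.0534 to 0.309), and the others named in this paragraph did. Log2 changes there were 0.55 for Gpnmb, 0.56 for Ctsd, 1.04 for Cfi, -0.83 for Cxcl1 and -0.60 for Cxcl6. Those that passed had 0.90 (Fabp4), 0.71 (Ctsz), 0.39 (Ctsa), 0.63 (C1qc), 0.58 (Hmgcs1), 1.45 (Kng1) and 0.52 (Emp1). Among them the falls were -1.04 (Cd163), -0.78 (Adamts9), -0.52 (Hsph1), -0.84 (Fmo2) and -0.51 (Cyp4b1). In the fit on all 24 libraries Fmo2 had an edgeR adjusted p of 0.0610, which passed without air 6 (0.00289), smoke 2 (0.00992) or silica 4 (0.0489). Emp1 (0.0544 with all libraries) passed without air 6, smoke 2, smoke 1 or silica 4 (0.00296 to 0.0489). Adamts9, Cd163, C1qc, Ctsz, Cyp4b1, Fabp4, Hmgcs1, Hsph1, Kng1 and Muc5b passed without air 6 as well (0.00102 to 0.0421), Adamts9 and Hsph1 without combined 4 (0.0494), C1qc (0.0288) and Ctsz (0.0411) without silica 3, and Cd163 without silica 2 (0.0102).

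Gene lists numbering 44, with 619 tested genes, were described by their counts and medians. Most lists had no member called in the fit on all libraries, where 0.248% of all genes were called. Lists with 10 or more tested members and the highest medians were airway defence (0.54, and 0.31 without silica 1), macrophage markers (0.33 and 0.19), complement (0.33 and 0.27), myeloid receptors (0.33 and 0.24), and cathepsin and lysosome genes (0.32 and 0.22). The lowest were lung cytochrome P450 and flavin monooxygenase enzymes (-0.32 and -0.26), glucocorticoid-induced genes (-0.30 and -0.08), immediate early genes (-0.27 and -0.24) and heat shock chaperones (-0.22 and -0.23). Extracellular matrix genes had a median of -0.02 with silica 1 and 0.02 without it.

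None of the markers on the macrophage, alveolar type 2 and endothelial lists was called in the fit on all 24 libraries, where 0.248% of all tested genes were. Their part in the results above was not tested. In the fit of 11 libraries 1 macrophage marker was higher and 1 lower, and 1 alveolar type 2 gene was higher. Of all genes 0.488% were higher and 0.355% lower there. Sox17, named above as a transcription factor of endothelium, was among the 33 calls but not on the endothelial list. The summed level of all 18 macrophage markers on the list ran from 14070 to 32813 CPM in silica lungs (median 29192). In combined lungs it ran from 30123 to 37635 CPM (median 34938), and silica 1 was the lowest. Most of this sum was the single gene Lyz2, at 13177 to 31479 CPM in silica lungs and at 28814 to 36190 CPM in combined lungs. Alveolar type 2 and surfactant genes summed to 18791 to 35278 CPM and to 34274 to 39701 CPM, again with silica 1 lowest. Endothelial markers summed to 4843 to 7785 CPM and to 4786 to 5316 CPM, with silica 1 highest. The ranges of the 2 groups overlapped on each list.

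**Figure D5:**
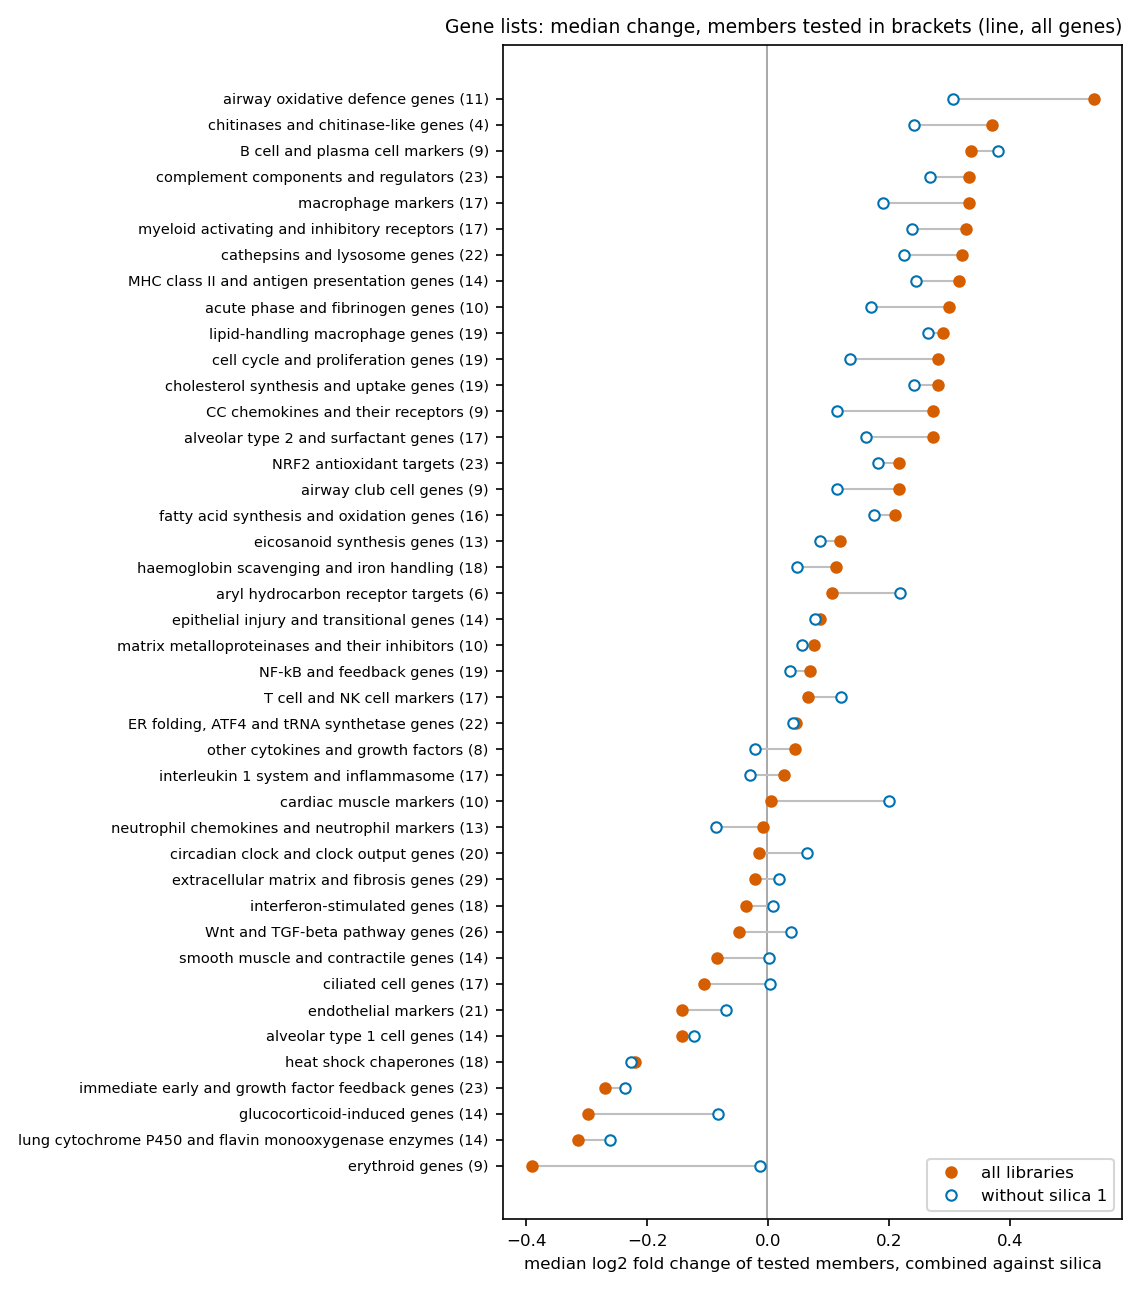
Median log2 fold change, combined against silica, of the tested genes of each list with 4 or more of them, with all libraries (filled) and without silica 1 (open), and the number tested in brackets. The vertical line is the median of all genes at -0.002, airway oxidative defence genes lie highest at 0.54, and the erythroid list moves from -0.39 to -0.01 when silica 1 is left out.

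Genes listed as targets of the aryl hydrocarbon receptor or NRF2, through which smoke constituents are known to act, gave no calls. Cyp1a1, a cytochrome P450 enzyme of polycyclic hydrocarbons, was too low to be tested, with 1 to 3 reads in each of the 6 combined libraries, 1 read in silica 1 and none in silica 2 to 6. Cyp1b1, its relative, had medians of 3.37 CPM in silica and 4.49 CPM in combined lungs (log2 0.10 ± 0.38, edgeR adjusted p 0.966), and 0.34 ± 0.41 without silica 1, and its sign turned without silica 3 or combined 4. Nqo1, an NRF2 target that detoxifies quinones, lay at 28.7 to 40.8 CPM and at 38.0 to 54.0 CPM (log2 0.31 ± 0.15, edgeR adjusted p 0.392, and 0.33 ± 0.17 without silica 1). None of 6 tested aryl hydrocarbon receptor targets and none of 23 tested NRF2 targets was called, with medians of 0.11 and 0.22, or 0.22 and 0.18 without silica 1. Of all tested genes 0.248% were called, so an absence of calls says little about lists of this size. The summed level of the NRF2 list ran from 3037 to 3543 CPM in silica lungs, with silica 1 lowest. In combined lungs it ran from 3524 to 3961 CPM.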

How the data were processed

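Lung RNA of 24 rats was sequenced, and the authors deposited raw counts of reads for each gene as whole numbers. The submitters' processing notes list HTSeq 0.11.2, HISAT2 2.1.0, SAMtools 1.8, Cufflinks, Trimmomatic 0.35 and bcl2fastq 2.19. Neither build nor annotation nor the strand setting of the counting is stated (not given in the sources used here). Overlapping, antisense and near-identical genes are therefore uncertain. Per the labels' protocols the libraries were stranded and made from total RNA depleted of ribosomal RNA. Of 30069 lines 26 repeated another and were removed, leaving 30043 genes.

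The test was that of edgeR 4.0.16 under R 4.3.3. Genes with a minimum count of 10 by filterByExpr (13322) were scaled by TMM and fitted with 1 mean per group over all 24 libraries (20 residual degrees of freedom). Tests were quasi-likelihood F tests, two-sided, with Benjamini-Hochberg adjustment over all genes tested. Beside a log2 change, ± gives its standard error, computed as its size over the square root of F. CPM are counts over TMM-scaled library totals, with n = 6 libraries per group. DESeq2 1.42.0, limma 3.58.1 (voom with quality weights) and fits leaving out libraries were alternatives. The scripts were tested on simulated data with known changes.

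Replicate numbers follow accession order and pair no animals. The labels describe separate animals, and no pair of libraries agreed within counting noise, with a chi-square per degree of freedom of at least 1.81 among silica and 1.73 among combined libraries. The comparison, the 44 gene lists and the naming rule were chosen with earlier results of these data known. The rule named up to 12 genes per direction with the largest change among those called with and without silica 1 and a mean of at least 1 CPM, from each list at most 4 called genes and its most abundant uncalled gene, and 15 fixed genes such as Cyp1a1 and Spp1. Of the 41 uncalled genes so named, 11 are given, and 21 genes were added after their values were seen. The results of 1 called gene are not reported here. Symbols are those of the deposited table, and RefSeq tables of assembly GRCr8 served for older symbols on the lists and for promoter windows.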

Additional observations from a re-analysis of the deposited data

Results flagged for a closer look

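Of 152 sets of 6 libraries checked (each named gene in each group), 24 held an outlying library. Its gap to the nearest other exceeded the share of the group's range that Dixon's 95% critical value allows. For independent, normally distributed values chance gives about 1 in 20. The outlying library was silica 1 in 14 of the 24 sets. Some genes were picked after their values were seen, and genes of the same library are not independent. The counts are therefore a description only.

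In silica 1 the level was low for genes of macrophages, inflammation and surfactant. It was 3.20 CPM for Mmp12, 121 CPM for Chi3l1, 4.11 CPM for Cxcl6, 13177 CPM for Lyz2 (lysozyme), 428 CPM for Gpnmb, 870 CPM for Ctsd and 458 CPM for C3. It was 803 CPM for Pigr, the receptor that carries antibodies across epithelium, 4904 CPM for Sftpa1 and 4345 CPM for Sftpc. In the other direction silica 1 lay highest, at 734 CPM for Acer2, 191 CPM for Pde3a, 1435 CPM for Vwf (the endothelial von Willebrand factor) and 0.457 CPM for Cyp1a1, which is 1 read.

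The shallow library silica 4 lay lowest for Fam20c at 17.9 CPM and Ago4 at 28.7 CPM, and highest for Npas2 at 100.5 CPM. In the combined group, combined 6 lay highest for Col16a1 at 418 CPM and Duox1 at 63.0 CPM, combined 3 for Per3 at 81.0 CPM and Chi3l1 at 711 CPM, combined 4 for Npas2 at 39.4 CPM and Cyp1a1 at 2.82 CPM, and combined 1 for Muc5b at 64.7 CPM. The calls of Col16a1, Duox1, Per3, Npas2 and Pde3a held whichever single library was left out, and those of Npas2 and Pde3a did not pass without silica 1 and silica 4 together.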

How the results depend on the processing

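With all libraries 16 genes were higher and 17 lower. Higher and lower calls numbered 9 and 7 without silica 1, 8 and 6 without silica 1 and silica 4, 9 and 8 at an adjusted p under 0.01, 47 and 53 in the fit of 12 libraries, 62 and 45 there without silica 1, 57 and 59 with limma voom, and 61 and 50 without silica 1, smoke 1, smoke 2 and air 6. Leaving out each library in turn gave 9 to 56 higher and 7 to 57 lower. The difference of the smoke effect had 0 calls, also whichever library was left out, 1 with DESeq2, 9 with limma voom and 19 without silica 1, smoke 1, smoke 2 and air 6. RLE scaling, no filter, a minimum count of 30 and the fit without silica 1, smoke 1 and smoke 2 stayed within 1.5 times each count. None of the 33 called genes changed sign under any setting. The cause of these shifts was not tested. The settings with 12 libraries and no silica 1, and without 4 libraries, were chosen after seeing the data.

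Signs turned for 3 genes near 0. Cyp1b1 ranged from -0.036 to 0.34 (log2) over single libraries left out. Lcn2 was 0.030 with DESeq2 and ranged from -0.23 to 0.13. Sftpc was -0.10 in the fit of 12 libraries without silica 1, -0.038 with limma voom, -0.10 without silica 1, smoke 1 and smoke 2, -0.10 with air 6 left out too and -0.088 without silica 1 and silica 4, and ranged from -0.095 to 0.063. Over all named genes and settings 2252 values kept their direction and side of the threshold, 122 passed it anew, 154 no longer passed it and 18 changed sign.

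No paired analysis was possible because replicate numbers come from the order of deposit and tie no animals together. Depth limits low genes most in silica 4, where 3 reads are 10.7 CPM, and in smoke 2, where they are 139 CPM.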
